A study of Homo sapiens with 8 samples.

Results

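The 5 miRNAs hsa-miR-1260a, hsa-miR-1260b, hsa-miR-1246, hsa-miR-1290 and hsa-miR-1273g-3p carry miRNA names, but their sequences overlap transfer RNA (tRNA), U2 small nuclear RNA (snRNA) or repeat sequence of the Alu type. They were chosen by name out of the 2006 human miRNAs on the array, with their signals and their treatment comparisons already in view, so that their values and calls are a description and no p is given for them. They were measured in BT474 and SKBR3, which are human breast cancer lines with HER2, the receptor that the antibody trastuzumab binds. The labels give BT474 as ER+, HER2+ and PR+, and SKBR3 as ER-, HER2+ and PR+, where the study's methods have PR- for SKBR3. Cells of each line received 6 µg/mL trastuzumab or, as the control, PBS for 144 h, as 2 biological replicates per treatment, and total RNA was hybridized to one-colour miRNA arrays. The array labelled SKBR3 PBS replicate 1 is a copy of BT474 PBS replicate 1 in all 62344 spots and was left out here. The 7 distinct arrays are 2 of PBS treated and 2 of trastuzumab treated BT474 cells, and 1 of PBS treated and 2 of trastuzumab treated SKBR3 cells. Between 201 and 256 miRNAs were detected on an array, 173 on all 7 arrays and 1699 on none.

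A canonical miRNA is cut from a hairpin transcript by the enzymes Drosha and Dicer, is loaded onto an Argonaute protein, and pairs with mRNAs mainly through its seed, the bases 2 to 8. miR-1260a and miR-1260b resemble the 3′ end of tRNAs, the adaptors of protein synthesis, and miR-1246 and miR-1290 resemble a stretch of U2 snRNA, an RNA of the spliceosome. The miR-1273 entries lie in Alu elements, short repeats that occur throughout the human genome. Fragments of tRNA and snRNA are common in small RNA preparations, and an array probe reads the short RNA that binds it, not the transcript from which it was cut.

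Mature sequences of 4 of the 5 miRNAs were found in RefSeq (GRCh38.p14), and are shown 5′ to 3′ with the seed in capitals because likeness between them bears on what the probes can tell apart.
hsa-miR-1260a: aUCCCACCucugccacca
hsa-miR-1260b: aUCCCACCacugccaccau
hsa-miR-1246: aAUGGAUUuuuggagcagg
hsa-miR-1290: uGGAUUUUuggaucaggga
miR-1260a and miR-1260b share their seed, which no other mature miRNA of the table has, and 17 of the first 18 bases. They differ by U9A, with miR-1260a first and positions counted from 1 at the 5′ end, and miR-1260b has 1 base more at its 3′ end. miR-1246 and miR-1290 have different seeds, each found in no other mature miRNA of the table, but they share the 12 bases uggauuuuugga, positions 3 to 14 of miR-1246 and 1 to 12 of miR-1290. Of the 2370 mature miRNA names in the table, no other shares 10 or more bases in a row with either of them or with miR-1260a, while miR-1260b shares 10 with miR-1229-3p and with miR-6509-3p. The 4 sequences lie on different chromosomes: miR-1260a at chr14:77266231-77266248 (+ strand) within the span of the gene NGB, miR-1260b at chr11:96341447-96341465 (+ strand) within that of MAML2, miR-1290 at chr1:18897078-18897096 (- strand) within that of ALDH4A1, and miR-1246 at chr2:176601024-176601042 (- strand) within the span of no other listed gene. Whether these places are exonic or intronic was not analysed here.

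The summed signal is the scanner software's intensity for a miRNA over its 30 spots, which here hold 2 probes of 15 spots each. hsa-miR-1260b had summed signals of 4325 and 5062 in PBS treated and 1740.4 and 2761 in trastuzumab treated BT474 cells, and of 2981 in PBS treated and 3413 and 3279 in trastuzumab treated SKBR3 cells. Both trastuzumab arrays of BT474 lay below both PBS arrays, and below every SKBR3 array. hsa-miR-1260a had summed signals of 6231 and 6968 with PBS and 3509.6 and 5178 with trastuzumab in BT474 cells, and of 2972 with PBS and 3753 and 3916 with trastuzumab in SKBR3 cells. Here too the treatments did not overlap in BT474, while in SKBR3 both trastuzumab arrays lay above the single PBS array.

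hsa-miR-1273g-3p, the miRNA of the Alu type, had summed signals of 9167 and 9042 with PBS and 3753 and 6637 with trastuzumab in BT474 cells, and of 3469.6 with PBS and 3406 and 3539 with trastuzumab in SKBR3 cells. The trastuzumab treated BT474 arrays lay below the PBS arrays but far from each other, and the SKBR3 trastuzumab arrays lay on either side of the PBS array.

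Of the miRNAs that resemble U2 snRNA, hsa-miR-1246 had summed signals of 214 and 343 with PBS and 284 and 217 with trastuzumab in BT474 cells, where the treatments overlapped, and of 87.2 with PBS and 197 and 211 with trastuzumab in SKBR3 cells. The SKBR3 PBS array, which was the lowest of the 7, was also the one on which 10 of the 15 spots of the brighter probe were well above background, against 15 of 15 on the others. hsa-miR-1290 had summed signals of 113 and 154 with PBS and 78.1 and 64.1 with trastuzumab in BT474 cells, and was not detected on any of the 3 SKBR3 arrays. Its treatments did not overlap in BT474, but the signals were near the limit of the array: of the 15 spots of its brighter probe, 12 and 15 were well above background with PBS and 7 and 1 with trastuzumab. Of the 221 miRNAs detected on all 4 BT474 arrays, 53.4% had summed signals that did not overlap between the treatments, and 13.6% had both trastuzumab arrays below both PBS arrays, as 4 of the 5 had; nothing is read from that count.

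**Figure D1:**
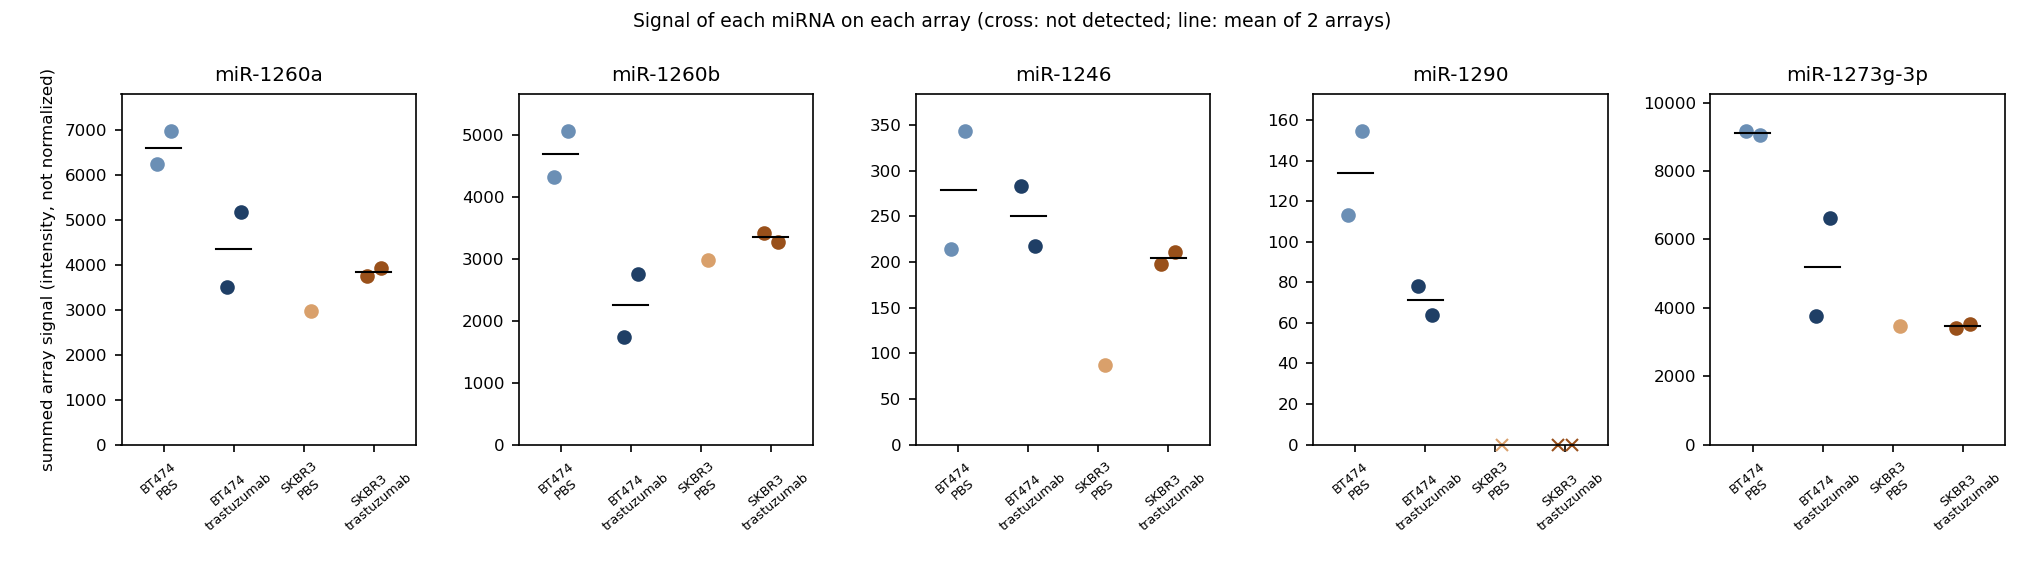
Summed signal (intensity, linear axes from 0, not normalized) of each of the 5 miRNAs on the 7 distinct arrays; points are arrays, crosses mark arrays on which the miRNA was not detected, and lines are means of 2 arrays. In BT474 the trastuzumab arrays lie below the PBS arrays for every miRNA but miR-1246, and miR-1290 is not detected in SKBR3.

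To compare the treatments within a line, the signals were quantile normalized over the 7 arrays, set to at least 10, and fitted on the log2 scale with limma. A miRNA was called where the unadjusted p was under 0.05 and the fold change above 2, the thresholds of the study. In BT474 cells, the log2 difference of trastuzumab minus PBS was -1.36 ± 0.11 (SE, n = 2 and 2) for hsa-miR-1260b, with group means of 10.57 and 11.93. It was -1.02 ± 0.29 for hsa-miR-1273g-3p and -0.82 ± 0.14 for hsa-miR-1260a. hsa-miR-1290 stood at -1.10 ± 0.64 and hsa-miR-1246 at -0.41 ± 0.40, so that the SE of miR-1246 was nearly as large as its difference. The SE is that of the limma fit, which draws the variance of each miRNA towards a value common to all. It is thus not the replicate spread of that miRNA alone, and the number of arrays limits the precision. Less of an RNA per cell and fewer cells that hold it cannot be told apart on such arrays.

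Called in either direction were 2 of the 5 miRNAs, hsa-miR-1260b as well as hsa-miR-1273g-3p, both lower with trastuzumab, beside 14.0% of the 285 miRNAs tested in BT474 cells; since the 5 were chosen with this comparison in view, nothing is read from the count. hsa-miR-1273g-3p lay just inside the fold threshold, hsa-miR-1260a was short of it at -0.82, and hsa-miR-1290 was past the fold but not the p threshold. After scaling to the 75th percentile hsa-miR-1260a (-1.08) and hsa-miR-1290 (-1.35) were called as well, which makes 4 of the 5, beside 14.3% of the 287 miRNAs tested on that scale; nothing is read from this count either. The median log2 difference of the 5 was -1.02, and that of the 285 miRNAs was 0.0049. Among the 221 miRNAs detected on all 4 BT474 arrays, counted from the most downregulated, hsa-miR-1260b had rank 2, hsa-miR-1273g-3p rank 10, hsa-miR-1260a rank 17 and hsa-miR-1246 rank 41; no rank is given for hsa-miR-1290, which was near the limit of the array.

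Without a BT474 array 1 treatment has a single array, which is then assumed to vary like the 2 of the other, so that calls kept or lost in these fits say little of stability. The call of hsa-miR-1260b was kept in each of the 12 other settings and without each array in turn, with log2 differences from -1.55 to -1.09. That of hsa-miR-1273g-3p was lost without any 1 of the 4 BT474 arrays, with log2 differences of -0.82 and -1.28 without PBS replicates 1 and 2 and of -0.72 and -1.25 without trastuzumab replicates 1 and 2. It was also lost with no normalization (-0.87), with spike-in scaling (-0.88), by the methods' t-test and with the replicate number as a block, where 32 miRNAs were called. Without trastuzumab replicate 1, hsa-miR-1290 was called at -1.92, and without trastuzumab replicate 2 it stood at -0.36; with background corrected spots it stood at -0.18. hsa-miR-1246 moved from -0.81 to -0.00096 between the fits without trastuzumab replicates 1 and 2.

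In SKBR3 cells, where the single PBS array is assumed to vary like the trastuzumab arrays, the log2 difference of trastuzumab minus PBS was -0.18 ± 0.039 (SE, n = 2 and 1) for hsa-miR-1260b, 0.017 ± 0.18 for hsa-miR-1260a, -0.40 ± 0.20 for hsa-miR-1273g-3p and 0.60 ± 0.28 for hsa-miR-1246. None of the 4 detected miRNAs was called by limma, beside 11.5% of the 227 miRNAs tested, none had an unadjusted p under 0.05, and the methods' t-test called none. The median of the 4 was -0.082 and that of the 227 was -0.092. With no normalization the sign of hsa-miR-1260b turned, to 0.17, and hsa-miR-1273g-3p stood at 0.00095. After scaling to the 75th percentile hsa-miR-1260b stood at -0.011 and hsa-miR-1273g-3p at -0.18, and with spike-in scaling at -0.015 and -0.18. The sign of hsa-miR-1260a turned with the copied array kept, to -0.054, and its values ranged from -0.11 to 0.14 with an array left out. Scaling changed the call of hsa-miR-1246, which was made at 1.23 with no normalization between arrays and at 1.05 with arrays scaled to the spike-in controls. After scaling to the 75th percentile hsa-miR-1246 also stood at 1.05 but was not called.

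**Figure D2:**
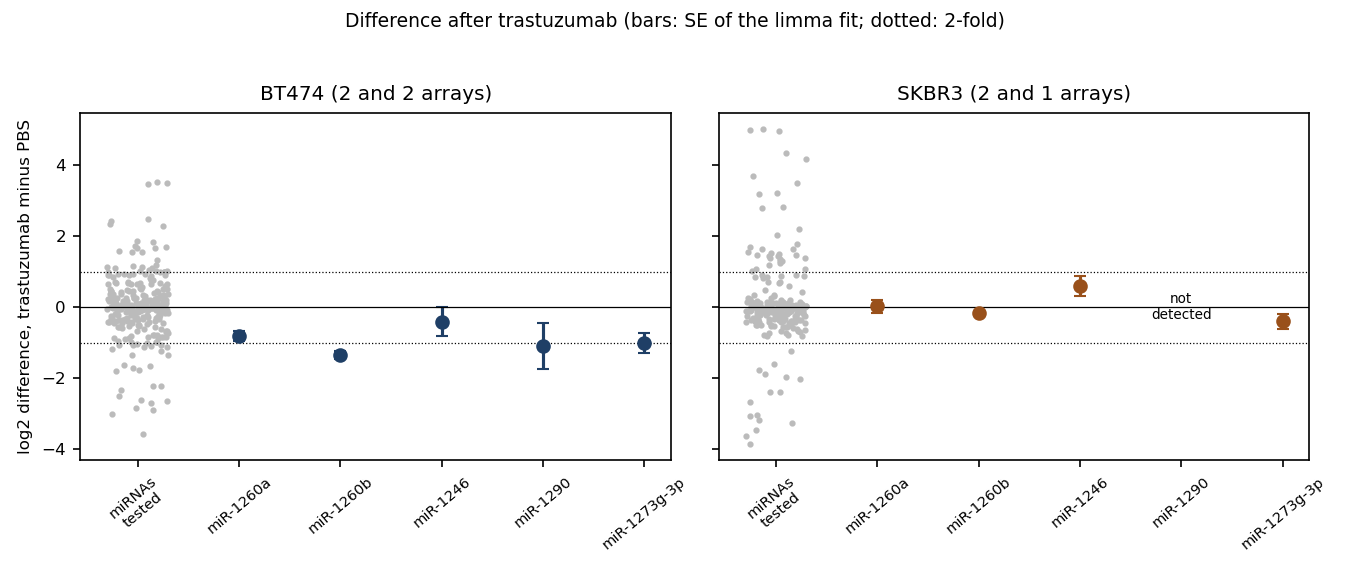
Log2 difference of trastuzumab minus PBS in BT474 (left) and SKBR3 (right) cells; coloured points are the 5 miRNAs with the SE of the limma fit, grey points are the miRNAs tested (285 and 227), spread sideways for sight, and dotted lines mark a 2-fold change. In BT474 hsa-miR-1260b lies at -1.36 with a short error bar, and in SKBR3 the 4 detected miRNAs lie between -0.40 and 0.60.

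The size of a difference depends on how the arrays are scaled. In BT474 the median over the 221 miRNAs detected on all 4 arrays was 0.00 after quantile normalization, -0.24 after scaling to the 75th percentile, 0.22 with no normalization and 0.21 after scaling to the spike-in controls. Relative to this median, hsa-miR-1260b stood at -1.36 after quantile normalization and at -1.31 on the other 3 scales, hsa-miR-1273g-3p at -1.02 and -1.08, hsa-miR-1290 at -1.10 and -1.12, hsa-miR-1260a at -0.82 and -0.84, and hsa-miR-1246 at -0.41 and -0.34. In SKBR3, where the median over 188 miRNAs lay between -0.10 and 0.36, hsa-miR-1246 stood at 0.70 and 0.87 relative to it, hsa-miR-1273g-3p at -0.30 and -0.36, hsa-miR-1260b at -0.080 and -0.20, and hsa-miR-1260a at 0.12 and 0.0057. The other 3 scales shift all miRNAs of an array alike, so that their values relative to the median are equal by construction and this is 1 comparison, of quantile normalization with a shift.

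The signals of hsa-miR-1260b and hsa-miR-1260a changed unequally, although their sequences differ by little. Whether their probes tell the 2 miRNAs apart was not tested. The ratio of the 2 summed signals within an array needs no scaling between arrays, and it has no meaning as a ratio of amounts, since different probes read them. The log2 ratio of miR-1260b over miR-1260a was -0.53 and -0.46 with PBS and -1.01 and -0.91 with trastuzumab in BT474 cells, and 0.0044 with PBS and -0.14 and -0.26 with trastuzumab in SKBR3 cells. It was lower with trastuzumab in both lines, by more than the gap between replicates in BT474, and every SKBR3 array lay above every BT474 array. The mean log2 ratio differed between treatments by -0.47 in BT474 and by -0.20 in SKBR3.

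**Figure D3:**
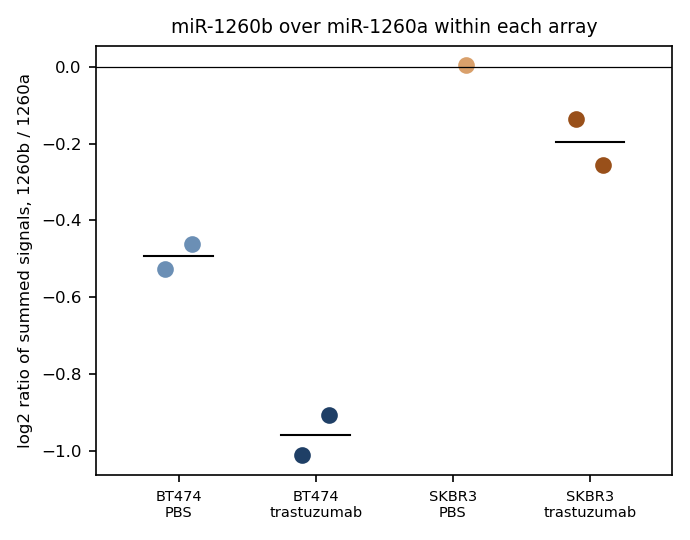
Log2 ratio of the summed signal of hsa-miR-1260b over that of hsa-miR-1260a within each array, by cell line and treatment; points are arrays and lines are means of 2 arrays. The 4 groups do not overlap, from -1.01 and -0.91 in trastuzumab treated BT474 cells to 0.0044 in PBS treated SKBR3 cells.

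The 2 probes of a miRNA give separate readings of it, and the deposited log2 values of each probe, normalized within a line, show where they differ. In SKBR3 that normalization included the copied array, which was left out of the differences only. For hsa-miR-1260b the log2 difference in BT474 was -1.34 at the brighter and -1.31 at the dimmer probe, and for hsa-miR-1273g-3p it was -1.06 and -1.21. For hsa-miR-1260a the probes were further apart, at -0.87 for the brighter and -0.42 for the dimmer probe in BT474, and at -0.023 and 0.56 in SKBR3. All 15 spots of both probes of these 3 miRNAs were well above background on each of the 7 arrays, and no spot of the 5 miRNAs was saturated. The signals of hsa-miR-1246 and hsa-miR-1290 rested on the brighter probe, since on no array was more than 1 of the 15 spots of the dimmer probe well above background. The brighter probe of hsa-miR-1246 gave -0.36 in BT474 and 0.66 in SKBR3, and that of hsa-miR-1290 gave -0.95 in BT474.

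**Figure D4:**
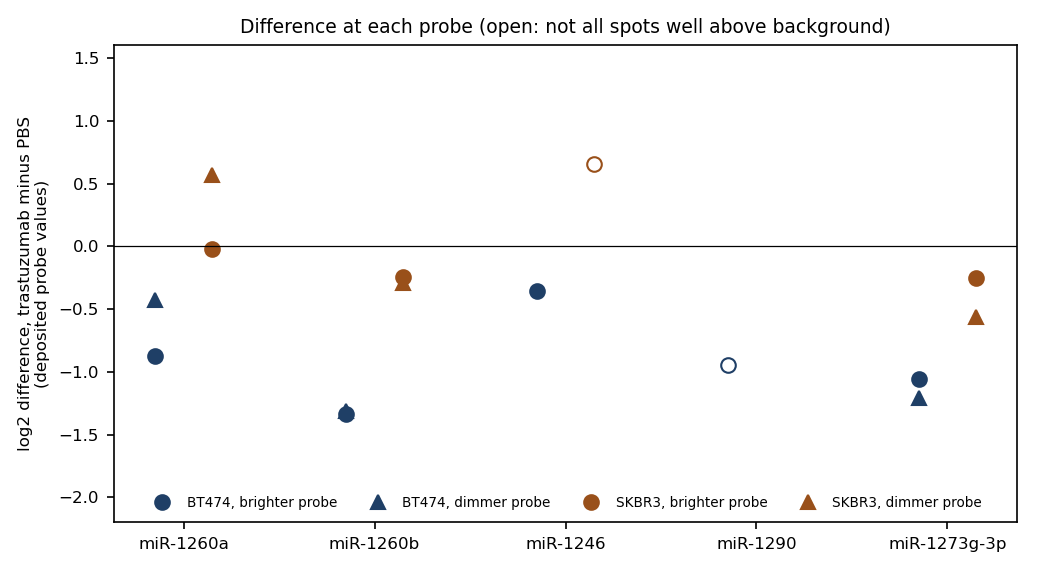
Log2 difference of trastuzumab minus PBS at each probe, from the deposited values, for BT474 (blue) and SKBR3 (brown); circles are brighter and triangles dimmer probes, and open symbols have arrays on which some of the 15 spots were not well above background; probes with at most 1 spot well above background on any array of the line are not drawn. The probes of miR-1260b lie together in each line, and those of miR-1260a lie apart in both.

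Levels across the lines were compared as the mean of both treatments, BT474 minus SKBR3. hsa-miR-1260b was called, with a log2 difference of -1.09 ± 0.076 (SE, 7 arrays), and so was hsa-miR-1290, beside 46.2% of the 305 miRNAs tested; again nothing is read from the count. After quantile normalization the difference of hsa-miR-1260b was -0.50 with PBS, where SKBR3 has 1 array, and -1.68 with trastuzumab. For hsa-miR-1260a it was 0.071 and -0.76. This split depends on the scale too. With no normalization hsa-miR-1260b was higher in BT474 with PBS, at 4325 and 5062 against 2981. With trastuzumab it was lower there, at 1740.4 and 2761 against 3413 and 3279. The others stood at -0.35 ± 0.12 for hsa-miR-1260a, -0.29 ± 0.30 for hsa-miR-1246 and -0.090 ± 0.21 for hsa-miR-1273g-3p. The sign of each of these 3 turned with no normalization, to 0.65 for hsa-miR-1260a, 0.96 for hsa-miR-1246 and 0.96 for hsa-miR-1273g-3p. The difference of hsa-miR-1260b depends on the scale, since it was -0.89 after scaling to the 75th percentile, -0.018 after scaling to the spike-in controls and 0.020 with no normalization, and no call was made on these 3 scales, nor with the copied array kept (-0.98) or with background corrected spots (-0.95). The median of the 173 miRNAs detected on all 7 arrays moved with it, from -0.42 after quantile normalization to 0.71 with no normalization, and relative to this median hsa-miR-1260b stood at -0.67 and -0.69.

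hsa-miR-1290 was detected in BT474 cells alone, so that its difference between the lines is given as a lower bound. In it the mean of the BT474 arrays is set against the lowest signal detected for any miRNA on each SKBR3 array. The bound assumes that hsa-miR-1290, where not detected, lay no higher than that signal. After quantile normalization it was at least 1.56-fold higher in BT474 cells with PBS (n = 2 and 1), and no bound is given with trastuzumab, where the mean of the BT474 arrays lay below that limit. Both depend on the scale, since the lowest summed signals detected on the SKBR3 arrays, 19.3 with PBS and 26.8 and 28.3 with trastuzumab, were raised by the normalization and lay below every BT474 signal of hsa-miR-1290. The size of the difference of hsa-miR-1290 between the lines rests on the floor for values not detected, at which its SKBR3 values all stand. Its log2 difference was 2.78 at the floor of 10, 6.10 at a floor of 1 and 1.15 at a floor of 32, and was called at each. With background corrected spots it was 0.60 and not called. With the copied array kept it was 2.01 and not called.

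The difference between the lines in their response was taken from the interaction of the same fit, BT474 minus SKBR3, at an adjusted p under 0.05. Of the 5 miRNAs hsa-miR-1260b was called, beside 16.1% of the 305 miRNAs tested, with a difference of -1.18 ± 0.15 on the log2 scale. The others stood at -0.83 ± 0.24 for hsa-miR-1260a, -1.00 ± 0.59 for hsa-miR-1246, -0.61 ± 0.42 for hsa-miR-1273g-3p and -1.10 ± 0.88 for hsa-miR-1290, whose SKBR3 arrays are all at the floor and whose sign turned with the copied array kept (0.55). Without an SKBR3 trastuzumab array the line has 1 array per treatment, and the spread comes from BT474 alone. With 1 array left out, the difference ranged from -1.42 to -0.57 for hsa-miR-1246 and from -0.87 to -0.33 for hsa-miR-1273g-3p. The call of hsa-miR-1260b was lost without BT474 PBS replicate 1 (-1.14) or 2 (-1.22) and without SKBR3 trastuzumab replicate 1 (-1.19) or 2 (-1.15), with no normalization (-1.26), with spike-in scaling (-1.09) with the deposited values (-1.06) and with the copied array kept (-1.42). Without BT474 trastuzumab replicate 1 hsa-miR-1290 was called as well, at -1.92, and with background corrected spots hsa-miR-1260a was.

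The miRNAs most like each of them over the 7 arrays were named by the Pearson correlation of the normalized log2 signals, against 171 others detected on all 7 arrays whose signals varied. These correlations describe 7 arrays in 4 groups. hsa-miR-1260b was closest to hsa-miR-6085 (r = 0.997), hsa-miR-5739 (r = 0.989) and hsa-miR-6165 (r = 0.962). Their log2 differences in BT474 were -1.13 ± 0.085, -1.13 ± 0.15 and -0.84 ± 0.22, of which the first and second were called, and in SKBR3 they were -0.23, -0.42 and -0.23. With no normalization none of the 3 was called in BT474, at -0.89, -0.90 and -0.61, and in SKBR3 the sign turned, to 0.24, 0.25 and 0.37. After scaling to the 75th percentile all 3 were called in BT474, at -1.35, -1.35 and -1.06. Their SKBR3 signs turned there too, to 0.061, 0.076 and 0.19, and with spike-in scaling, to 0.058, 0.073 and 0.19. The mature sequences of miR-6085 and miR-6165 are shown to set them beside that of miR-1260b.
hsa-miR-6085: aAGGGGCUgggggagcaca
hsa-miR-6165: cAGCAGGAggugaggggag
Their seeds differ from each other and from that of miR-1260b, and the longest run of bases in common with miR-1260b is 3 for miR-6085 and 2 for miR-6165. They lie at chr15:62343111-62343129 (+ strand) and, within the spans of NGFR and NGFR-AS1, at chr17:49510825-49510843 (+ strand).

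hsa-miR-1260a was closest to hsa-miR-1260b (r = 0.933), hsa-miR-6085 (r = 0.923) and hsa-miR-15b-5p (r = 0.918), a miRNA of the miR-15/16 family. hsa-miR-1273g-3p was closest to hsa-miR-4443 (r = 0.932), hsa-miR-3676-5p (r = 0.901) and hsa-miR-1260a (r = 0.842). hsa-miR-4443 had a log2 difference of -1.00 ± 0.10 in BT474, not called there but called after scaling to the 75th percentile (-1.19). In SKBR3 its difference was -0.41, and the sign turned with no normalization (0.23), at the 75th percentile (0.047) and with spike-in scaling (0.044). The signals of hsa-miR-1246 were less like those of any other miRNA, with hsa-miR-16-2-3p (r = 0.673), hsa-miR-6124 (r = 0.670) and hsa-miR-1234-5p (r = 0.655) the closest, and r was 0.0077 between hsa-miR-1246 and hsa-miR-1273g-3p.

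**Figure D5:**
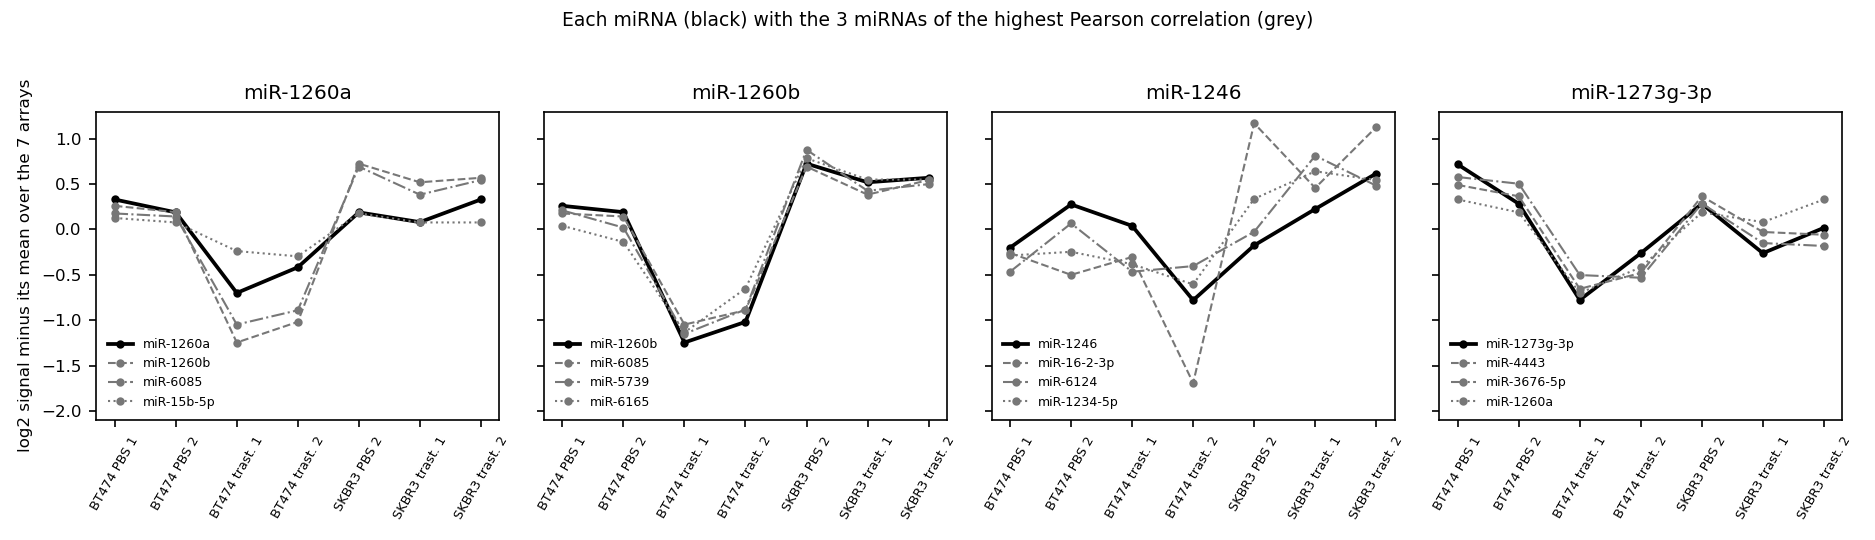
Normalized log2 signal, minus its mean over the 7 arrays, of each miRNA detected on all arrays (black) and of the 3 miRNAs with the highest Pearson correlation to it (grey); lines only join the points of a miRNA. hsa-miR-6085 (r = 0.997) follows hsa-miR-1260b on all 7 arrays, and the 3 miRNAs closest to hsa-miR-1246 (r from 0.655 to 0.673) scatter around it.

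Other annotated miRNAs that overlap repeats, small nucleolar RNAs (snoRNAs), tRNA or rRNA were listed too. Of the 20 in the list of Alu or other repeats, 18 were not detected on any array, beside 1699 of all 2006 miRNAs, among them hsa-miR-1273g-5p, the other arm of the hairpin of hsa-miR-1273g-3p, and 5 further miR-1273 entries. The remaining 2, hsa-miR-1268a and hsa-miR-1268b, were detected on all 7 arrays. hsa-miR-1268a had summed signals of 353 and 407 with PBS and 751 and 1049.6 with trastuzumab in BT474 cells, and of 327 with PBS and 965 and 906 with trastuzumab in SKBR3 cells. In both lines the trastuzumab arrays lay above the PBS arrays, in the opposite direction to hsa-miR-1273g-3p in BT474. Of the 221 miRNAs detected on every BT474 array, 39.8% had both trastuzumab arrays above both PBS arrays, so that nothing is read from this.

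hsa-miR-1268a was upregulated by 1.01 ± 0.10 in BT474 and 1.08 ± 0.023 in SKBR3 on the log2 scale, and hsa-miR-1268b by 1.04 ± 0.17 and 1.18 ± 0.067, all past both thresholds. After scaling to the 75th percentile the BT474 differences were 0.78 and 0.83 and were not called, while the SKBR3 differences were called on all 4 scales. The sequences of hsa-miR-1268a and hsa-miR-1268b are nearly alike, and whether their probes tell them apart was not tested.
hsa-miR-1268a: cGGGCGUGgugguggggg
hsa-miR-1268b: cGGGCGUGguggugggggug
The 18 bases of miR-1268a are the first 18 of miR-1268b, which has 2 more at its 3′ end, and their places are chr15:22225308-22225325 (- strand) and, within the span of CCDC40, chr17:80098831-80098850 (+ strand).

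The snoRNA list has 8 entries, of which the array holds 6, and all 7 arrays detected 2. hsa-miR-3651 had log2 differences of 0.20 ± 0.21 in BT474 and -0.34 ± 0.015 in SKBR3, and hsa-miR-3653 of 0.98 ± 0.24 and -0.086 ± 0.045, none of them called. An SE of 0.015 was also given to miRNAs at the floor on both SKBR3 trastuzumab arrays, so that it is not a measured spread. In SKBR3 the sign of hsa-miR-3651 and of hsa-miR-3653 turned on every other scale. hsa-miR-3651 stood at 0.20 with no normalization, 0.019 at the 75th percentile and 0.016 with spike-in scaling. hsa-miR-3653 stood at 0.56, 0.38 and 0.38 on these scales. With no normalization and with spike-in scaling hsa-miR-3653 was called in BT474, at 1.21 and 1.20. Of the 6 entries in the tRNA or rRNA list, 2 were detected on all 7 arrays. hsa-miR-3676-5p had summed signals of 548 and 626 with PBS and 287 and 367 with trastuzumab in BT474 cells, and of 195 with PBS and 227 and 191 with trastuzumab in SKBR3 cells. It was called in BT474, with a log2 difference of -1.06 ± 0.062, and not in SKBR3, where it stood at -0.45 ± 0.028; with no normalization the differences were -0.85, not called, and 0.091, and after scaling to the 75th percentile -1.31, called, and -0.087. All 30 spots of hsa-miR-4454 were saturated on every array, so that its signal gives only a lower limit and no difference.

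The epithelial markers miR-200c-3p, miR-141-3p, miR-200b-3p, miR-183-5p, miR-182-5p and miR-375 were all detected on the 4 BT474 arrays. On the SKBR3 arrays miR-200c-3p, miR-141-3p and miR-183-5p were detected on all 3, miR-182-5p on 2, and miR-200b-3p and miR-375 on none. The 2 leukocyte and 4 fibroblast markers were not detected on any array, and of the 2 arms at the ERBB2 locus hsa-miR-4728-3p was detected on the 2 PBS arrays of BT474 and hsa-miR-4728-5p on the 3 SKBR3 arrays. Of the 3 muscle markers only hsa-miR-1 was detected, in BT474, at 127 and 173 with PBS and 286 and 382 with trastuzumab, and hsa-miR-205-5p, a marker of basal epithelium, stood at 111 and 111 with PBS and 234 and 269.9 with trastuzumab there. The part of these markers in the values of the 5 miRNAs was not tested.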

How the data were processed

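The authors deposited scanner output of Feature Extraction 11.5.1.1 for each array, with intensities per spot, not normalized between arrays, and a summed signal and detection flag per miRNA (0.1 where not detected). The deposited log2 values are per probe, quantile normalized by the authors within each line (medians of 5.36 for BT474 and 5.29 for SKBR3 columns), so that they were not set across lines. From there, quantile normalization was applied to the summed signals of the 7 distinct arrays (2006 miRNAs), which were then raised to a floor of 10, and compared on the log2 scale with limma 3.58.1 in R 4.3.3, within each line and over 4 group means. miRNAs above the floor on at least 1 array of a fit were tested, and the fits were tested on simulated data. All arrays share 1 slide, the PBS samples in its row 2 and the trastuzumab samples in its row 1: effects of row and of treatment cannot be told apart. The BT474 arrays lie in columns 1 and 2 and the distinct SKBR3 arrays in columns 3 and 4. Effects of column and of line cannot be told apart either. Named miRNAs were the 5, the 3 closest to each one detected on all 7 arrays, the detected entries of 3 lists (Alu or other repeat, snoRNA, tRNA or rRNA), and cell type markers, of which miR-126-3p (endothelial) was detected on 3 BT474 arrays and miR-451a (erythroid) on 1. The members and lists were chosen with earlier results of these data known. Alternatives were other scalings, floors, filters and spot values, the deposited values, a joint fit and a replicate block. Others were an ordinary t-test, the copied array kept, and each array left out. The ordinary t-test shares no variance between miRNAs, while the study names a random variance model for its t-test. Spike-in scaling was chosen after seeing the data, as was the filter on detection for the interaction. Sequences came from RefSeq tables (GRCh38.p14).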

Additional observations from a re-analysis of the deposited data

Results flagged for a closer look

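hsa-miR-1260b was called by the interaction of the fit over all miRNAs: its log2 difference of trastuzumab minus PBS was -1.36 in BT474 and -0.18 in SKBR3, a difference of -1.18. At the same threshold 49 of 305 miRNAs were called. The miRNA was chosen with the treatment comparisons in view, so that the call is a description and no support for a difference, and the SKBR3 side has 1 PBS array. The call was lost in 4 of 6 fits with an array left out, with no normalization, with spike-in scaling, with the deposited values and with the copied array kept.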

How the results depend on the processing

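In BT474, where 40 miRNAs were called, the count was 85 with the deposited values and 2 with background corrected spots (2006 miRNAs tested in each). It was 20 among miRNAs detected on all 4 arrays, 26 with a floor of 32 and 26 by an ordinary t-test (5 after Benjamini-Hochberg, against 41 in limma). In SKBR3 the ordinary t-test left 27 after Benjamini-Hochberg, and limma 15. The count of 26 called there became 119 with the deposited values, 9 with background corrected spots, 11 among miRNAs detected on all 3 arrays and 14 with the copied array kept. Between the lines, with 141, it was 48, 66 and 87 with background corrected spots, detection on all 7 arrays and the copied array; the deposited values were not run there. For the interaction, with 49, it was 5 with the copied array, 23 with detection on all 7 arrays, 25 with no normalization, 26 with spike-in scaling and 0 with the deposited values (limma, 175 unadjusted), and from 29 (without SKBR3 trastuzumab replicate 1) to 74 (without BT474 trastuzumab replicate 2) with an array left out. Fewer miRNAs enter the filters on detection; the other causes were not tested. No contrast with the SKBR3 PBS array could be fitted without it. Scaling moved the split of higher and lower calls: 20 and 20 in BT474 became 13 and 28 at the 75th percentile, 26 and 13 with no normalization and 26 and 15 with spike-ins; 18 and 8 in SKBR3 became 31 and 8, 31 and 6, and 27 and 8; 76 and 65 between the lines became 86 and 40, 132 and 16, and 131 and 16; and 30 and 19 for the interaction became 16 and 35, 11 and 14, and 14 and 12. The difference of hsa-miR-1260b between the lines turned to 0.020 with no normalization. The labels state no pairing of replicate numbers, but distinct PBS and trastuzumab arrays of a line with the same number share a slide column; deviations of BT474 replicates with the same number correlated at 0.209 over 221 miRNAs, and with the number as a replicate block 32 miRNAs were called, hsa-miR-1260b among them and hsa-miR-1273g-3p not. Low signal over background limits hsa-miR-1246 and hsa-miR-1290.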
